A study of Mus musculus with 6 samples.

Results

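The germ cells of the fetal gonads of dKO XY and control XY mice at embryonic day E15.5 were examined cell by cell. The gate asked a cell for at least 5 unique molecular identifiers (UMIs, each a count of 1 captured RNA molecule) of *Dazl* and at least 2 of *Ddx4*. *Dazl* codes for an RNA-binding protein needed for germ cells to take up their sexual fate, and *Ddx4* codes for an RNA helicase of the germ line. Of 29239 cells that passed the quality filter in the XY libraries, 854 were chosen by their *Dazl* and *Ddx4* UMIs, and 830 of these came from dKO XY and 24 from control XY. A filtered cell had above 2500 and below 9000 genes, under 25% mitochondrial UMIs and under 20% beta-globin UMIs. The same gate took 520 germ cells from control XX ovaries, which served as the reference for meiosis, out of 39350 filtered cells in the whole series.

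The dKO XY mice were *Amh* -/- and *Inhbb* -/-, which removes from every cell the anti-Müllerian hormone and the beta B subunit of activin B. Control XY and control XX mice were *Amh* +/+ and *Inhbb* +/+ and came from the same *Amh* and *Inhbb* colony. All gonads were taken at E15.5, and the dissociated cells were frozen and thawed before capture. Each group had 2 libraries, described by the study as independent biological replicates. The p-values rest on the spread between libraries of a group, pooled over the groups of a fit. In the fit against control XY that estimate is shared by all 6 libraries. It therefore does not measure the spread of the control XY pair alone, whose sums come from few cells.

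Fetal germ cells arrive in the gonad with the pluripotency genes of primordial germ cells still active. In an ovary they enter meiosis in fetal life, switch on *Stra8*, and build chromosome axes and synaptonemal complexes as pluripotency genes are silenced. In a testis they are shielded from meiosis, pass through a phase of nodal signalling, stop dividing as prospermatogonia and start NANOS2, DNMT3L and the piRNA machinery that guides methylation of transposons.

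The 2 control XY libraries held 15 and 9 cells of the gate, or 0.220% and 0.105% of their filtered cells. The dKO XY libraries held 442 and 388, or 5.42% and 6.81%, and the control XX libraries held 298 and 222, or 5.59% and 4.64%. Control XY therefore stood apart from both other groups, and every level given for it rests on at most these 24 cells. Fewer germ cells in the gonad and a lower recovery of them from control XY cannot be told apart here. With *Dazl* and *Ddx4* lowered to 3 and 1 UMIs (the looser gate), the counts were 19 and 11 for control XY. They were 522 and 527 for dKO XY, and 400 and 283 for control XX. With only the lower gene limit changed, to 1500, the counts were 17 and 11 for control XY. That setting gave 473 and 414 for dKO XY, and 342 and 235 for control XX. Because *Dazl* and *Ddx4* chose the cells, their values are given as a description only. *Dazl* stood at 611 and 587 CPM (its UMIs over all UMIs of the gated cells of a library, times 1000000) for control XY, 895 and 754 for dKO XY, and 940 and 959 for control XX. In cells gated as endothelial by *Kdr* and *Cdh5*, which should lack it, *Dazl* was between 0.550 and 8.91 CPM. Cells that passed the germ cell gate were left out of the endothelial set, so its low *Dazl* is in part set by that rule. At the edge of the gate, dKO XY had 15 and 20 cells with exactly 5 *Dazl* UMIs inside it, and 18 and 17 cells with 4 *Dazl* UMIs outside it.

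The other fixed germ cell markers were set against endothelial cells of the same libraries. *Dppa3*, a pluripotency-associated gene of the germ line, was between 70.0 and 1429.6 CPM in the gate and at most 11.2 CPM in endothelial cells. *Dppa5a*, of the same kind, was between 142 and 1256 CPM against at most 6.77, and *Nanos2*, which keeps male germ cells out of meiosis, was at 0 in control XX 2. The gated cells of a library summed to between 541415 and 650209 UMIs for control XY, 16222402 and 18374275 for dKO XY, and 8505684 and 11997561 for control XX. Median depth was 38412 and 65223 UMIs a cell in control XY, and between 34182 and 38950 in the other 4 libraries. No barcode was gated in more than 1 library. A few barcodes of gated cells also occurred among the filtered cells of another library, at most 2 for any pair of libraries. Cells with at least 10 UMIs of somatic markers (Sertoli, granulosa, Leydig and interstitial lists) per 10000 UMIs made up 35.7% and 37.5% of control XY, 22.0% and 38.3% of dKO XY, and 31.4% and 21.2% of control XX germ cells. The summed level of the 8 Sertoli markers in the gate was 1432 and 693 CPM for control XY, 780 and 1346 for dKO XY, and 76.0 and 62.8 for control XX. The 7 granulosa markers summed to 38.4 and 51.7 CPM for control XY, 92.7 and 227 for dKO XY, and 631 and 381 for control XX. Values were therefore recomputed without the cells that carried somatic RNA, and are given beside several of the results. This left 10 and 6 cells in the control XY libraries. *Amh* itself was at 1064 and 209 CPM in the control XY gate, 5.33 and 8.81 for dKO XY, and 0.500 and 1.06 for control XX. Without the cells carrying somatic RNA it was at 8.89 and 24.8 CPM for control XY, against 4.08 and 5.37 for dKO XY. *Inhbb* was at 49.2 and 12.9 CPM for control XY, and 6.10 and 19 for dKO XY. Whether the counted 3' ends lie within the deleted parts is not given in the sources used here, so these levels check the labels in part only.

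The comparison with control XX asked how far dKO XY germ cells had taken up the ovarian state. Summed per library and tested with edgeR's quasi-likelihood test, dKO XY stood above control XX in 2960 of 14537 genes (20.4%) and below it in 3083 (21.2%) at a Benjamini-Hochberg adjusted p under 0.05. The comparison with control XY, fitted over all 6 libraries, called 184 of 14561 genes (1.26%) higher and 231 (1.59%) lower in dKO XY. The second count depends on single libraries: without control XY 1 it fell from 415 genes to 66, and without control XX 2, which is in neither group compared but enters the filter, scaling and spread of the fit, it rose to 654 (of 15350 genes tested). Both comparisons share the dKO XY libraries, so their values are set side by side and no agreement between them is read.

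Many meiotic genes were above control XY and most were below control XX in dKO XY germ cells. Across the meiotic lists (entry, axis, synaptonemal complex, recombination and telomere attachment), 42 of 55 names were listed and tested. Against control XX, 38 were lower and 0 higher in dKO XY (beside 21.2% and 20.4% of all genes), with a median log2 fold change of -2.04 beside 0.01 for all genes. Against control XY, 12 were higher and 0 lower (beside 1.26% and 1.59% of all genes), with a median of 1.28, or 1.06 with genes at 0 for control XY set to their bound, beside 0.08 for all genes. Without cells carrying somatic RNA the same comparison gave 12 higher and 0 lower, but more genes were called higher in that setting. Of all 13270 genes tested there, 321 were higher and 244 lower. Without control XY 1 it gave 4, and without control XY 2 it gave 7.

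*Stra8*, the retinoic acid-induced gatekeeper of meiotic entry, was read in 5 UMIs over both control XY libraries, at 4.61 and 3.69 CPM. It was at 200 and 201 CPM for dKO XY and at 674 and 320 for control XX. The 3 groups did not overlap, and dKO XY lay between the controls. Against control XY the log2 fold change was 5.64 ± 0.50 (SE, adjusted p = 6.48e-06), and the ratio of summed levels was 47.8, with a 95% interval of 20.5 to 147 that covers counting error only. Against control XX it was -1.25 ± 0.27 (adjusted p = 0.00173). *Meioc*, which stabilises the meiotic programme at the RNA level, was at 3.08 and 0 CPM for control XY, 57.4 and 60.5 for dKO XY, and 278 and 319 for control XX. With 2 UMIs behind the control XY level, the ratio of summed levels was 35.1 (95% counting interval 9.69 to 290). It was higher than in control XY by 5.19 ± 0.57 (adjusted p = 5.91e-05) and lower than in control XX by a log2 fold change of -2.30 ± 0.22 (adjusted p = 8.28e-07). Both genes stayed called against control XY when either of its libraries was left out, with adjusted p at most 0.00151. *Rec8*, the meiotic cohesin subunit loaded at entry, was at 13.8 and 16.6 CPM for control XY, 53.9 and 51.7 for dKO XY, and 90.2 and 53.1 for control XX. Here dKO XY exceeded control XY by 1.86 ± 0.37 (adjusted p = 0.0107, and 0.194 without control XY 1), while its difference from control XX missed the threshold (-0.39 ± 0.23, adjusted p = 0.182).

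**Figure D1:**
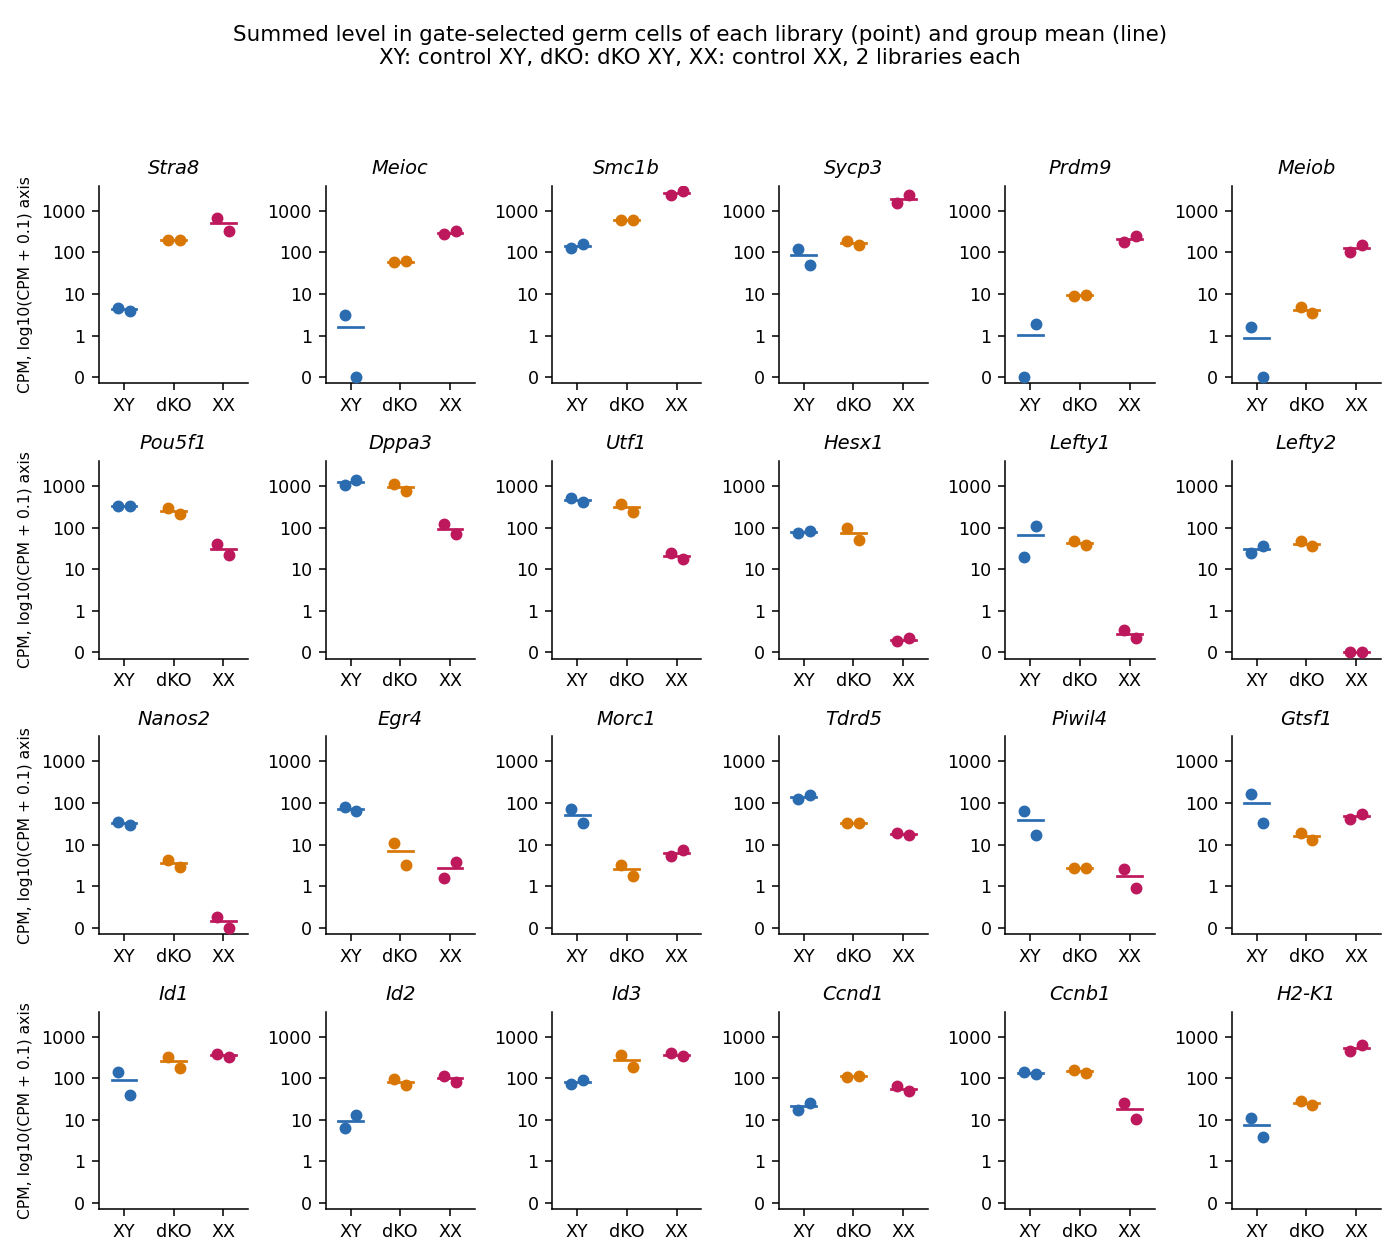
Levels of 24 genes in the gated germ cells of the 6 libraries, as CPM on a log10 axis after adding 0.1, with 1 point for each library and colours for control XY, dKO XY and control XX. *Stra8* and *Meioc* of dKO XY sit between the controls, and *Pou5f1* and *Dppa3* of dKO XY sit beside control XY.

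Structural genes of meiotic chromosomes were nearly all below the ovary. All 6 tested members of the synaptonemal complex list and 7 of 8 of the axis list were lower in dKO XY than in control XX, beside 21.2% of all genes. *Smc1b*, a meiotic cohesin subunit, stood at 128 and 155 CPM for control XY, 588 and 598 for dKO XY, and 2423 and 2908 for control XX. It was 2.12 ± 0.25 log2 units above control XY (adjusted p = 0.000159), and the test against control XX gave -2.13 ± 0.25 (adjusted p = 8.32e-06). *Sycp1*, the transverse filament of the synaptonemal complex, was at 137 and 81.3 CPM for control XY, 299 and 244 for dKO XY, and 940 and 1222 for control XX. *Syce1*, of the central element, was at 24.6 and 24.0, 94.3 and 88.2, and 262 and 332 CPM in the same order. Both were called in each comparison, with *Sycp1* 1.37 ± 0.28 and *Syce1* 1.97 ± 0.31 log2 units above control XY (adjusted p = 0.012 and 0.00158). *Sycp1* lost that call without control XY 2 (adjusted p = 0.117) and *Syce1* without control XY 1 (0.0631). *Sycp3*, of the lateral element, was at 120 and 49.9 CPM for control XY, 193 and 148 for dKO XY, and 1508 and 2342 for control XX. It did not pass against control XY (1.06 ± 0.34, adjusted p = 0.0995), and against control XX it was -3.46 ± 0.30 (adjusted p = 3.92e-07). *Syce3* was lower than in control XX by a log2 fold change of -3.91 ± 0.32 (adjusted p = 2.46e-07).

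Most recombination genes were below the ovary too. In that list 17 of 19 tested genes were lower than in control XX and 0 higher, beside 21.2% and 20.4% of all genes. *Meiob*, a single-strand DNA-binding factor of meiotic recombination, was at 1.54 and 0 CPM for control XY, 4.68 and 3.33 for dKO XY, and 101 and 152 for control XX. Both XY groups lay far below the ovary, and the test gave -4.94 ± 0.30 against control XX (adjusted p = 1.17e-08) and 2.31 ± 1.19 against control XY, where it rested on 1 UMI (adjusted p = 0.34, ratio of summed levels 4.82 with a counting interval of 0.851 to 192). *Prdm9*, the methyltransferase that marks recombination hotspots, was at 0 and 1.85 CPM for control XY, 8.87 and 9.37 for dKO XY, and 175 and 244 for control XX. Its difference from control XX was -4.49 ± 0.26 (adjusted p = 7.22e-09). *Rad21l*, another meiotic cohesin subunit, followed at 3.65 and 2.65 CPM for dKO XY against 63.7 and 87.2 for control XX. *Dmc1*, the meiotic strand-exchange recombinase, was at 6.15 and 5.54 CPM for control XY, 25.4 and 20.7 for dKO XY, and 157 and 207 for control XX, and was called against both (adjusted p = 0.0297 and 2.2e-07). The call against control XY was lost without control XY 1 (adjusted p = 0.28), without control XY 2 (0.125) and with the looser gate (0.0594).

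Promoters of 3 genes are printed to show the sequence at the start of the meiotic entry gene, a structural gene of the synaptonemal complex and the male gene. They come from RefSeq (GRCm38.p6), run from 250 bases before to 50 bases after the annotated start, on the plus strand, with any match in capitals. The search covered 2 hexamers on both strands, CACGTG, the E-box bound by MAX and MGA, and CCTCAG or its reverse complement CTGAGG, the core of the motif of STRA8 and MEIOSIN. The windows are chr6:34920698-34920997 for *Stra8*, chr10:88459337-88459636 for *Sycp3* and chr7:18987274-18987573 for *Nanos2*.
Stra8: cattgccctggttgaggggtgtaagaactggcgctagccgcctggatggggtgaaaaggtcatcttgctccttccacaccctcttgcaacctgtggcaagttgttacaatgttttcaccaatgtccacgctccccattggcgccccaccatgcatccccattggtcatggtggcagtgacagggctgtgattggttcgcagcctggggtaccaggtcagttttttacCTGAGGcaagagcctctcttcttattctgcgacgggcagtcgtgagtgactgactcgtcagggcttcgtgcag
Sycp3: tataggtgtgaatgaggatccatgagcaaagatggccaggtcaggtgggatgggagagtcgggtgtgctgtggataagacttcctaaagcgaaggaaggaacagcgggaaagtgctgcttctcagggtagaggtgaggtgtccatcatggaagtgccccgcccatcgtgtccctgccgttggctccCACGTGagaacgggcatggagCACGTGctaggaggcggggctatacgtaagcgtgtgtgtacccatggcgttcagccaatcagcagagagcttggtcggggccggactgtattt
Nanos2: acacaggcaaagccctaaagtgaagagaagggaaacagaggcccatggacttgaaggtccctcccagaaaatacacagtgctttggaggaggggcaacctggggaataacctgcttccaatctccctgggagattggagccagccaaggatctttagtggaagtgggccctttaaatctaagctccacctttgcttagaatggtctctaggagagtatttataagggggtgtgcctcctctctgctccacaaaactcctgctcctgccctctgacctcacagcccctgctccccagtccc
The *Stra8* window holds CTGAGG 23 bases before the start, the *Sycp3* window holds CACGTG 64 and 43 bases before it, and the *Nanos2* window holds neither. CACGTG was in 11 of 43 windows (25.6%) of the 37 meiotic genes found in the RefSeq table, and in 7.15% of all 32851 windows. CCTCAG or CTGAGG was in 20 of the 43 (46.5%) and in 26.8% of all. Windows of the 18 piRNA and methylation genes found held them in 11 of 30 (36.7%) and 15 of 30 (50%). They were in 1 and 4 of 11 prospermatogonial windows and in 0 and 3 of 14 pluripotency windows. A gene with several windows counts more than once, and differences between the lists were not tested. The meiotic windows were richer in CpG, with a median of 18 CpG and 60.7% GC against 7 and 52.7% for all windows, and CACGTG itself holds a CpG; the part of base composition in these shares was not tested. Matches describe the letters only.

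The intermediate level of meiotic genes came with a spread among the cells. Each cell was thinned to 10000 UMIs, and the UMIs of *Stra8*, *Sycp1*, *Dmc1*, *Prdm9* and *Spo11* were set against those of *Nanos2*, *Dnmt3l*, *Piwil4* and *Lefty2*. A cell was placed in the meiotic range with at least 2 UMIs of the first set and at most 1 of the second, and in the prospermatogonial range the other way round. The meiotic range took 273 of 423 (64.5%) and 223 of 376 (59.3%) dKO XY cells, a mean of 61.9% ± 3.70 (SD, n = 2). It took 267 of 277 (96.4%) and 202 of 203 (99.5%) control XX cells, a mean of 97.9% ± 2.20 (SD, n = 2), and 2 of 14 and 0 of 8 control XY cells. Both dKO XY values lay under both control XX values, and with 2 libraries a group the smallest two-sided p of an exact permutation test is 0.333. The prospermatogonial range took 24 (5.67%) and 20 (5.32%) dKO XY cells, 4 and 3 control XY cells and no control XX cell, which allows a share of up to 1.32% and 1.80% in the 2 control XX libraries (exact 95% upper limits). Of the 4 genes that set this range, *Lefty2* was the highest in the dKO XY cells, at 161 and 139 CPM against 4.77 and 30.0 in the control XY cells of the range. Their *Nanos2* was at 12.5 and 10.3 CPM against 57.2 and 47.1, *Piwil4* at 3.33 and 5.15 against 143 and 30.0, and *Dnmt3l* at 0 against 153 and 0. These 4 genes chose the cells, so their levels are a description only. Male germ cell genes outside the set were lower in the dKO XY cells of the range. *Egr4* was at 9.16 and 3.86 CPM against 143 and 98.5, *Morc1* at 0 and 2.57 against 124 and 64.3, and *Tdrd5* at 44.1 and 50.2 against 191 and 223. *Lefty1* went the other way, at 120 and 100 against 4.77 and 42.8. The range is therefore named for its score, and its dKO XY cells are not shown to be prospermatogonia. Of the other dKO XY cells, 27 and 19 had at least 2 UMIs of both sets and 99 and 114 had at most 1 of each. The ranges are cuts on a score and no cell types, and 113 and 109 dKO XY cells lay at 1 or 2 meiotic UMIs, next to the cut.

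The median dKO XY cell had 3 meiotic UMIs in each library, the median control XX cell 21 and the median control XY cell 1. With 20 or more meiotic UMIs there were 32 (7.57%) and 18 (4.79%) dKO XY cells, 142 (51.3%) and 109 (53.7%) control XX cells, and no control XY cell. A few dKO XY cells thus came close to the score of the median ovarian cell. Once cells carrying somatic RNA were left out, the dKO XY cells of that class held more *Stra8* than those of control XX (1278 and 1464 CPM against 908 and 306), and less *Sycp1* (978 and 943 CPM against 1449.9 and 1719). Both genes are part of the score that set the classes, so their levels within a class are a description only. *Stra8* had a UMI in 40.7% and 42.0% of thinned dKO XY cells, in 79.4% and 57.6% of control XX cells and in 0 of 14 and 0 of 8 control XY cells. *Sycp1*, also in the score, did not separate the XY groups in this way, with a UMI in 79.9% and 73.4% of dKO XY and 85.7% and 75% of control XY cells. In the class of 2 to 4 meiotic UMIs, 133 and 105 dKO XY cells, *Sycp1* was at 195 and 196 CPM and *Stra8* at 40.2 and 55.7. There *Sycp3*, outside the score, was at 80.7 and 71.0 CPM and *Smc1b* at 366 and 416. Control XY cells with 0 or 1 meiotic UMI held 85.9 and 48.9 CPM of *Sycp3* and 128 and 156 of *Smc1b*. The 5 control XY 1 cells with 2 to 4 held 197 and 133. In this low class *Sycp3* was thus not above control XY, while *Smc1b* was. The *Stra8* share among endothelial cells, at median depths of 28840 to 43855 UMIs, was at most 0.971% in any library. The dKO XY share thus lay above the free RNA seen in endothelial cells outside the germ cell gate. Without thinning the shares were 57.2% and 61.7% for dKO XY, 93.9% and 74.9% for control XX, 21.4% and 25% for control XY, where no cell held more than 1 *Stra8* UMI, and at most 3.43% in endothelial cells.

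**Figure D2:**
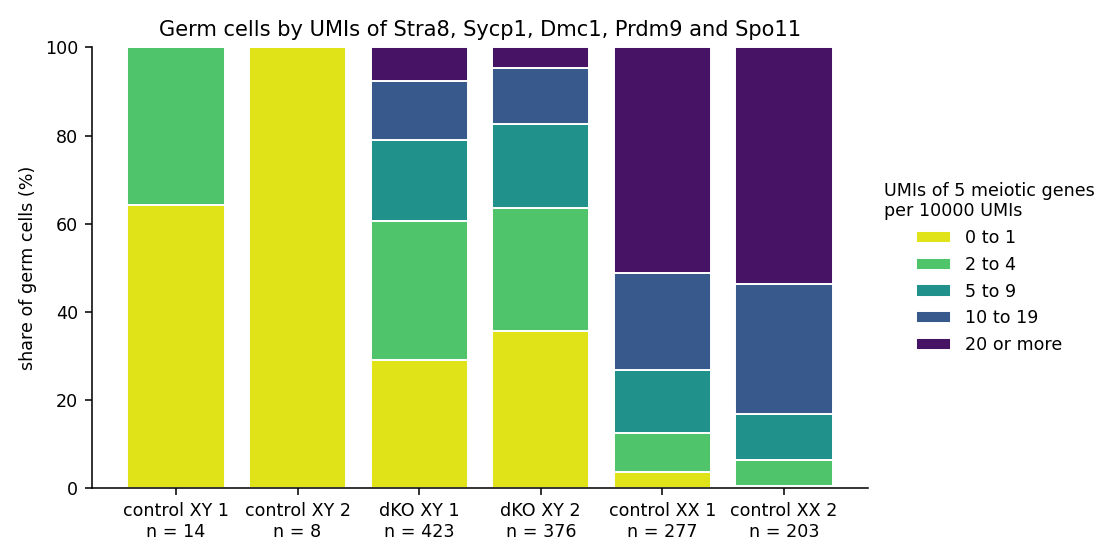
Share of thinned germ cells (% of cells, stacked bars, 1 bar for each of the 6 libraries) by the number of UMIs of *Stra8*, *Sycp1*, *Dmc1*, *Prdm9* and *Spo11* per 10000 UMIs. The class of 20 or more holds 7.57% and 4.79% of dKO XY cells, and 51.3% and 53.7% of control XX cells.

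Pluripotency genes of dKO XY lay well above the ovarian level, and most were not separated from control XY. Of 19 genes of the pluripotency and primordial germ cell list, 18 were higher in dKO XY than in control XX and 0 lower (median 2.51), and against control XY 1 was higher and 3 were lower. The shares of all genes were 20.4% and 21.2% against control XX, and 1.26% and 1.59% against control XY. *Pou5f1*, which codes for OCT4, was at 337 and 338 CPM for control XY, 305 and 212 for dKO XY, and 40.8 and 21.9 for control XX. The test gave 3.10 ± 0.29 against control XX (adjusted p = 7.1e-07) and -0.32 ± 0.27 against control XY (adjusted p = 0.583). *Utf1*, a chromatin factor of pluripotent cells, was at 508 and 412, 379 and 240, and 25.1 and 17.4 CPM in the order control XY, dKO XY, control XX (3.92 ± 0.28 against control XX, adjusted p = 7.08e-08). *Nanog* was at 6.15 and 25.9, 21.7 and 17.4, and 1.08 and 0.705 CPM. Of the 19, *Sox2* was above control XY in dKO XY, at 119 and 109 CPM against 56.9 and 57.3 (1.06 ± 0.27, adjusted p = 0.0437). Its call was lost under 6 alternatives, with adjusted p of 0.306 and 0.11 without control XY 1 and 2, and between 0.0544 and 0.0873 without dKO XY 1, with the replicate block, with the looser gate and without the top doublet scores.

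The 3 members that fell below control XY were *Dppa4*, *Nanos3* and *Dnd1*. *Dppa4*, a chromatin-associated partner of *Dppa2*, was at 443 and 323 CPM for control XY and 111 and 78.8 for dKO XY (-1.95 ± 0.32, adjusted p = 0.0022). *Nanos3*, an RNA-binding protein of early germ cells, was at 63.1 and 75.7 CPM for control XY and 21.9 and 14.4 for dKO XY (-1.86 ± 0.31, adjusted p = 0.00274). *Dnd1*, which codes for an RNA-binding protein of germ cells, was at 288 and 179 against 89.3 and 68.4 CPM (-1.50 ± 0.28, adjusted p = 0.00749, and 0.173 without control XY 1). All 3 were nevertheless higher in dKO XY than in control XX.

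Pluripotency and meiotic RNAs were found in the same dKO XY cells. *Stra8* and *Pou5f1* both had a UMI in 148 of 423 (35.0%) and 130 of 376 (34.6%) thinned dKO XY cells, and in 61 of 277 (22.0%) and 30 of 203 (14.8%) control XX cells. Without cells carrying somatic RNA the dKO XY shares were 39.7% and 47.0%. Among all thinned dKO XY cells, *Pou5f1* had a UMI in 87.0% and 78.2%, and *Stra8* in 40.7% and 42.0%. Only 2 and 9 control XX cells held *Pou5f1* without *Stra8*. Whether the 2 RNAs met more often than their separate shares give was not tested. *Pou5f1* had a UMI in at most 3.91% of thinned endothelial cells of any library. Doublets of 2 germ cells were not tested as a part of these counts. Among dKO XY cells with 20 or more meiotic UMIs and no somatic RNA, *Pou5f1* was at 153 and 191 CPM, against 24.5 and 10.4 for control XX cells of the same class. *Dppa3* was at 385 and 451 CPM against 55.4 and 34.9. Both were lower there than in dKO XY cells with 0 or 1 meiotic UMI, which held 418 and 327 CPM of *Pou5f1* and 1629 and 1295 of *Dppa3*. In the same class *Sycp3* was at 1072 and 689 CPM against 2356 and 3105, and *Meiob* at 43.5 and 15.8 against 161 and 205. The dKO XY side of that class held 32 and 18 cells. The dKO XY and control XX libraries did not overlap there for these 4 genes, which were picked by name. The share of all genes without overlap in the class was not computed. The class has no upper limit, and as given above its dKO XY cells held more *Stra8* and less *Sycp1* than those of control XX. Whether the cells compared were at a like stage of meiosis was not tested.

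A separate fit was limited to cells of the meiotic range, summed per library, and so tests levels over these cells and not RNAs within 1 cell. It called 2626 of 13850 genes (19.0%) higher and 2853 (20.6%) lower in dKO XY than in control XX, and 3581 genes in all in place of 5479 when control XX 2 was left out. In it 18 of 19 pluripotency genes were higher and 32 of 37 meiotic genes were lower, with medians of 2.56 and -1.61. *Pou5f1* was at 302 and 237 CPM for dKO XY and 41.2 and 21.6 for control XX (3.16 ± 0.26, adjusted p = 3.02e-08), and *Sycp3* at 267 and 220 against 1538 and 2370 (-2.96 ± 0.26, adjusted p = 7.88e-08). Restricting the cells to at least 10 meiotic UMIs, an alternative chosen after seeing the data, gave 3.12 for *Pou5f1*, -1.95 for *Sycp3* and -3.03 for *Meiob*. *Rec8* was called under the restriction alone, at 0.15 ± 0.22 in the meiotic range (adjusted p = 0.607) and 1.21 with 10 or more meiotic UMIs (adjusted p = 0.000143).

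**Figure D3:**
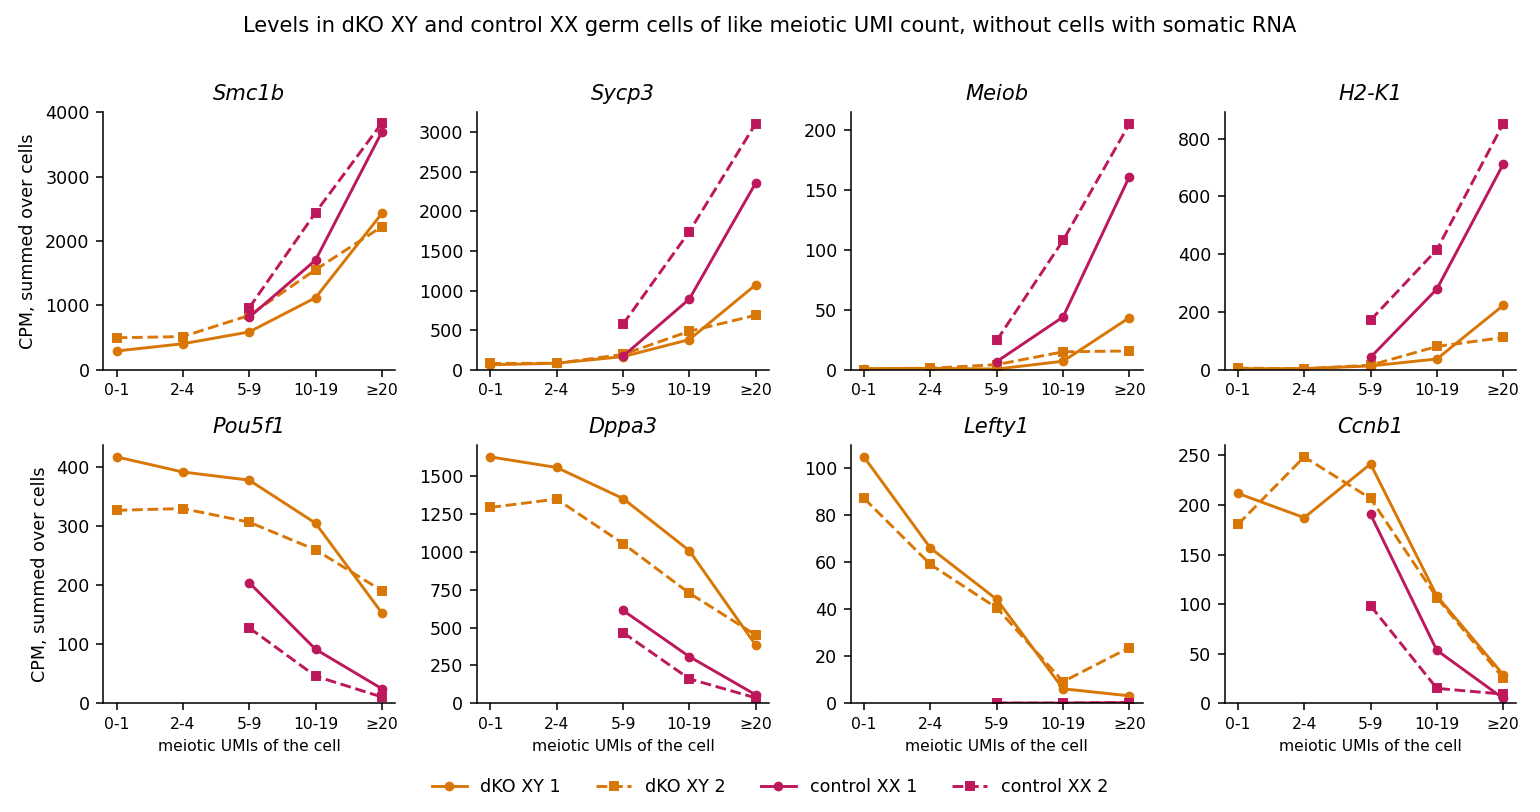
Levels of 8 genes (CPM) by class of meiotic UMIs per cell, for the dKO XY and control XX libraries, without cells carrying somatic RNA, with lines joining the classes of 1 library that hold at least 5 cells. In the class of 20 or more, *Pou5f1* is at 153 and 191 for dKO XY, its lowest class in both libraries, and at 24.5 and 10.4 for control XX.

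Nodal signalling genes of the male path were on in dKO XY. *Lefty2*, an inhibitor and target of nodal signalling, was at 24.6 and 36.9 CPM for control XY, 47.0 and 35.6 for dKO XY, and 0 in both control XX libraries, so that dKO XY was at least 282-fold higher than control XX, against a floor of 3 UMIs over the group. *Lefty1* was at 19.99 and 113 CPM for control XY, 47.6 and 38.7 for dKO XY, and 0.250 and 0.118 for control XX (7.78 ± 0.41 against control XX, adjusted p = 3.03e-09). *Nodal* itself was at 10.8 and 5.61 CPM for dKO XY and rested on 4 UMIs for control XX (5.43 ± 0.66, adjusted p = 1.22e-05). None of these 3 passed the edgeR test against control XY, with adjusted p between 0.478 and 0.634. *Hesx1*, a homeobox gene among the largest rises over control XX, was at 73.8 and 85.0 CPM for control XY, 97.9 and 49.1 for dKO XY, and 0.0834 and 0.118 for control XX (9.50 ± 0.56, adjusted p = 9.44e-09), with 2 UMIs behind the ovarian level and a 95% counting interval of 213-fold to 6355-fold. *Lefty1* was lower in most classes with more meiotic UMIs: dKO XY cells with 0 or 1 meiotic UMI and no somatic RNA held 105 and 87.2 CPM of *Lefty1*, those with 10 to 19 held 6.10 and 9.16, and those with 20 or more held 3.11 and 23.7, so that dKO XY 2 was higher again in the last class.

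Of 12 genes of the prospermatogonial list, 4 were lower in dKO XY than in control XY (beside 1.59% of all genes), 0 higher and 8 not called, or 2 without control XY 1, and 3 of 10 without cells carrying somatic RNA. Against control XX 8 of 11 were higher (beside 20.4% of all genes), nodal genes among them, and 1 was lower, with a median of 2.77 when genes at 0 are set to their bound. Without cells carrying somatic RNA 7 of 10 were higher and 0 lower, beside 3369 and 3460 of all 13132 genes tested in that setting. *Nanos2* was at 35.4 and 29.6 CPM for control XY, 4.25 and 2.71 for dKO XY, and 0.0834 and 0 for control XX, where it rested on 1 UMI (ratio of dKO XY to control XX 72.3, counting interval 12.7 to 2879). It was below control XY by a log2 fold change of -3.15 ± 0.49 (adjusted p = 0.00151) and stayed called without either control XY library. *Nanos2* had a UMI in 3.78% and 1.86% of thinned dKO XY cells, against 42.9% and 25% of control XY cells and no endothelial cell (without thinning 10.9% and 6.91%, 50% and 62.5%, and at most 0.858%). None of the 16 and 7 thinned dKO XY cells with *Nanos2* held a *Stra8* UMI. *Egr4*, a zinc-finger gene of male germ cells, was at 80.0 and 64.6 CPM for control XY and 10.6 and 3.08 for dKO XY (-3.32 ± 0.49, adjusted p = 0.00113). *Dnmt3l*, the cofactor of de novo DNA methylation, was at 58.4 and 1.85 CPM for control XY and at 0 and 0.123 for dKO XY. The control XY libraries did not share its level, and without control XY 1 it was too low to be tested.

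The piRNA pathway and de novo methylation list lay below control XY, with 11 of 21 tested genes lower and 0 higher (median -1.26), beside 1.59% and 1.26% of all genes. Leaving out cells with somatic RNA gave 10 lower, while leaving out control XY 1 gave 2 and leaving out control XY 2 gave 13. *Tdrd5*, a Tudor-domain protein of the piRNA pathway, was at 125 and 155 CPM for control XY, 33.4 and 32.5 for dKO XY, and 18.4 and 17.3 for control XX (-2.03 ± 0.24 against control XY, adjusted p = 0.000139, and at most 0.00251 without either control XY library). *Morc1*, needed for transposon silencing in male germ cells, was at 70.7 and 33.2 CPM for control XY and 3.21 and 1.66 for dKO XY (-4.34 ± 0.46, adjusted p = 5.22e-05). *Gtsf1*, a partner of PIWI proteins, was at 163 and 33.2 against 18.7 and 12.5 CPM (-2.60 ± 0.42, adjusted p = 0.00216), with an adjusted p of 0.44 without control XY 1 and 0.0577 with DESeq2. *Piwil4*, the nuclear PIWI protein, was at 63.1 and 16.6 against 2.67 and 2.65 CPM (-3.85 ± 0.55, adjusted p = 0.000799), and 0.161 without control XY 1. Against control XX 2 of 20 genes of the list were higher and 7 lower, beside 20.4% and 21.2% of all genes.

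**Figure D4:**
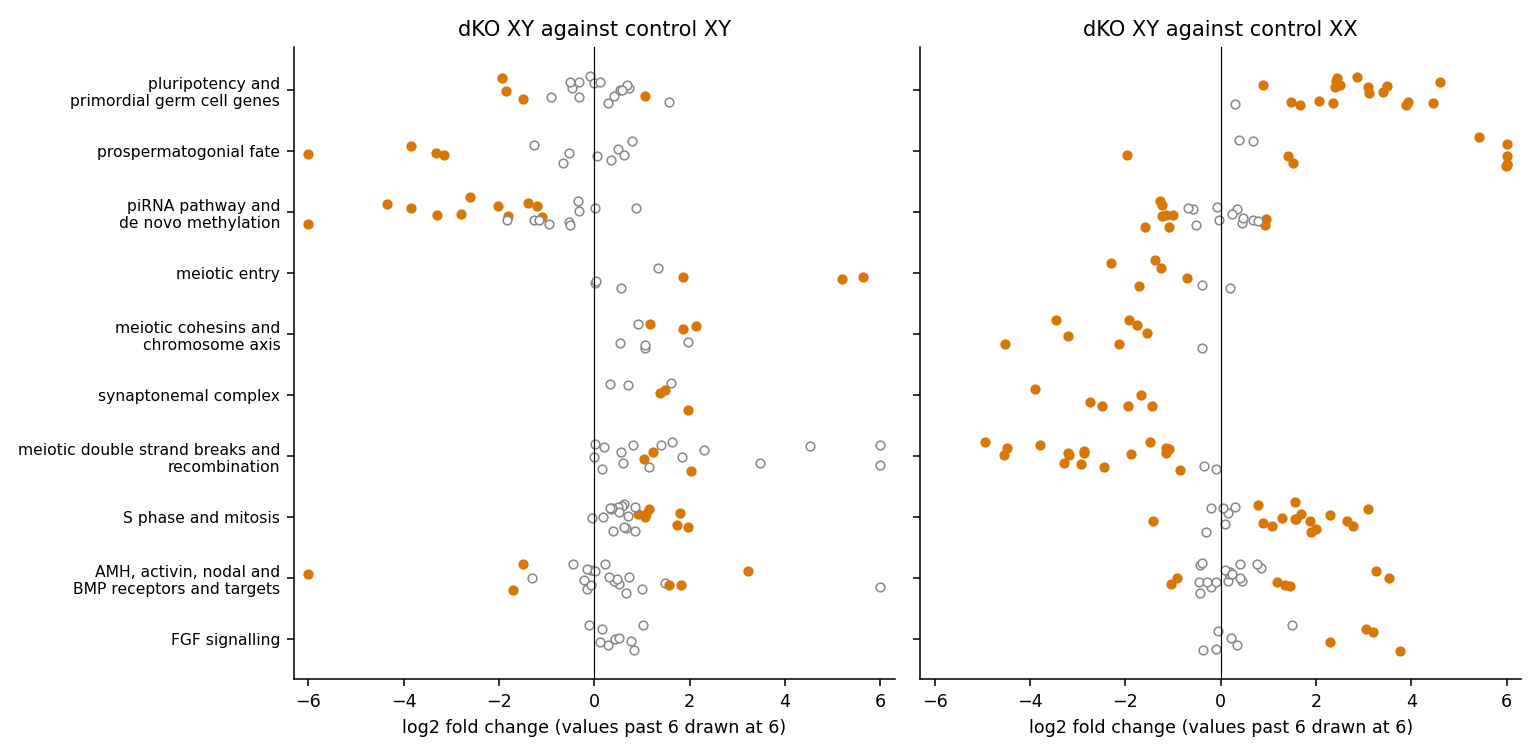
Log2 fold changes of the members of the gene lists in dKO XY against control XX and against control XY, with 1 point for each gene tested and filled points for genes called at an adjusted p under 0.05. Values past 6 are drawn at 6. Most genes of the meiotic lists lie below 0 against control XX and above 0 against control XY, and the pluripotency list lies above 0 against control XX.

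Most mitotic genes were higher in dKO XY than in control XX, and some were higher than in control XY. Against control XX 15 of 22 genes of the S phase and mitosis list were higher and 1 lower, and against control XY 7 were higher and 0 lower, or 0 of 22 without control XY 1 and 3 without control XY 2. Of all genes, 20.4% were higher against control XX and 1.26% against control XY. *Ccnb1*, the cyclin that drives entry into mitosis, was at 145 and 124 CPM for control XY, 157 and 137 for dKO XY, and 25.1 and 10.6 for control XX (3.09 ± 0.29 against control XX, adjusted p = 1e-06). *Mki67*, a marker of cycling cells, was at 32.3 and 83.1, 142 and 222, and 177 and 156 CPM (1.72 ± 0.33 against control XY, adjusted p = 0.00902, and 0.198 without control XY 1). *Ccnd1*, the G1 cyclin, was at 16.9 and 25.9 CPM for control XY, 108 and 114 for dKO XY, and 63.5 and 49.7 for control XX. It was 2.45 ± 0.31 above control XY (adjusted p = 0.000247, and at most 0.0177 without either control XY library) and 1.02 ± 0.20 above control XX (adjusted p = 0.000745). *Bub1*, a spindle checkpoint kinase, was the member lower than in control XX, at 107 and 112 against 271 and 326 CPM.

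Of the *Id* genes, targets of BMP signalling, *Id2* was above control XY in dKO XY under every alternative tried, and *Id1* and *Id3* under most. *Id2*, an inhibitor of basic helix-loop-helix factors, was at 6.15 and 12.9 CPM for control XY, 97.6 and 67.8 for dKO XY, and 116 and 82.5 for control XX. It was above control XY by 3.22 ± 0.42 (adjusted p = 0.000366), and its difference from control XX was -0.21 ± 0.23 (adjusted p = 0.504), and without cells carrying somatic RNA it turned to 0.96 (adjusted p = 0.00487). *Id1* was at 140 and 38.8, 332 and 176, and 391 and 323 CPM (1.56 ± 0.39 above control XY, adjusted p = 0.0338, and 0.197 without control XY 2, 0.108 with the looser gate and 0.29 with DESeq2). *Id3* was at 72.3 and 90.5, 363 and 184, and 405 and 340 CPM (1.82 ± 0.32, adjusted p = 0.00465, and 0.122 without control XY 1 and 0.0584 with the looser gate). Somatic cells express *Id* genes too, and without the cells carrying somatic RNA the differences from control XY were larger, at 3.93 for *Id1*, 5.02 for *Id2* and 3.14 for *Id3*. These differences rest on 10 and 6 control XY cells, where *Id2* was near the floor. In control XY 1 it was at 4.28 CPM with 0 or 1 meiotic UMI and at 0 with 2 to 4. In control XY 2 it was at 2.83 CPM. The *Id* genes were the 3 higher than in control XY in a list of 24 AMH, activin, nodal and BMP genes, of which 3 were lower (beside 1.26% and 1.59% of all genes), and against control XX 5 of the 24 were higher and 2 lower (beside 20.4% and 21.2%). The 3 that fell below control XY, *Amh*, *Inha* and *Inhba*, are made by Sertoli or Leydig cells. *Amh* is also a gene deleted in dKO XY. None of the 3 passed the test without the cells carrying somatic RNA, where the log2 fold change was -1.72 for *Amh*, 0.14 for *Inha* and 1.06 for *Inhba*. The AMH receptor gene *Amhr2* was at 66.1 and 24.0 CPM for control XY, 44.3 and 98.4 for dKO XY, and 78.1 and 53.3 for control XX, and without those cells at 0 and 2.75, 8.90 and 15.4, and 12.9 and 9.13.

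Of 15 genes of oocyte differentiation 5 were tested against control XX, of which 2 were lower (beside 21.2% of all genes), 0 were higher and 3 were not called. *Figla*, a transcription factor of primordial follicle formation, was at 3.08 and 0 CPM for control XY, 9.96 and 6.66 for dKO XY, and 101 and 154 for control XX (-3.89 ± 0.29 against control XX, adjusted p = 8.32e-08). *Ybx2*, a germ cell RNA-binding protein, was at 27.2 and 31.7 CPM for dKO XY and 62.8 and 65.1 for control XX (-1.08 ± 0.20, adjusted p = 0.000486).

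Class I histocompatibility genes were among the largest differences from the ovary. *H2-K1* was at 10.8 and 3.69 CPM for control XY, 28.8 and 22.5 for dKO XY, and 463 and 620 for control XX (-4.36 ± 0.27 against control XX, adjusted p = 1.73e-08). *H2-D1* was at 4.61 and 3.69, 20.3 and 13.3, and 322 and 467 CPM (-4.51 ± 0.30, adjusted p = 3.29e-08). *H2-K1* was higher at the upper end of meiotic UMIs among dKO XY cells without somatic RNA, going from 3.96 and 5.97 CPM at 0 or 1 meiotic UMI to 223 and 112 at 20 or more, where control XX held 711 and 851.

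The largest rises over control XX also held genes of somatic cells, which moved with the somatic RNA. *Cst9*, a Sertoli gene, was at 252 and 433 CPM for dKO XY and 0.417 and 0.235 for control XX, and at 22.1 and 32.7 for dKO XY without the cells carrying somatic RNA. *Cyp17a1* and *Cyp11a1*, of Leydig steroid synthesis, went from 183 and 146 to 26.1 and 34.4 CPM and from 137 and 76.3 to 21.2 and 26.3. *Xist*, the RNA of X inactivation, was at 388 and 225 CPM for control XX, and at 61.8 and 47.5 without those cells. In the full gate *Xist* was also called lower in dKO XY than in control XY, among the largest falls of that comparison. *Cdkn1b*, a brake on the cell cycle, was at 23.2 and 42.2 CPM for dKO XY against 151 and 109 for control XX, and without those cells at 13.7 and 12.4 against 24.0 and 14.0.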

How the data were processed

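Single-cell RNA-seq was run on 10x libraries of E15.5 mouse gonads. The authors deposited UMI counts per gene and cell made with Cell Ranger and the mm10 genome, per the labels and the study's methods, after correction of swapped barcodes. No normalization was in the deposited counts. From them, cells were filtered by genes, mitochondrial and beta-globin UMIs and gated on *Dazl* and *Ddx4* as stated above. The UMIs of the gated cells were summed per library over the 26251 genes listed in any library, 21110 of them in all 6, with a gene that a library did not list at 0. Sums were tested with edgeR 4.0.16 in R 4.3.3 (filterByExpr, TMM, glmQLFit and glmQLFTest) with Benjamini-Hochberg adjustment over all genes tested. *Dazl* and *Ddx4* were left out of the genes tested, and the 9 genes that set the ranges were left out of the meiotic-range fit. DESeq2 1.42.0 was an alternative. CPM values are UMIs over summed UMIs times 1000000, and 1 UMI was worth 1.54 and 1.85 CPM in the control XY libraries and between 0.0544 and 0.118 in the others. Intervals and floors cover counting error only.

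Cells under 10000 UMIs, 73 of the 1374 gated, were left out where cells were thinned. Scrublet's automatic threshold marked between 0 and 129 cells a library and had not worked in 4 of the 6, so no doublet was removed in the values above, and an alternative dropped the top 8% of cells by score. The prospermatogonial-range comparison with control XY needed 5 cells a library and had 4 and 3 in control XY, so it and its alternatives were not run. On simulated counts with 200 changed genes, genes changed by a log2 fold of 1 were recovered at 77%, 66% and 60% in the comparisons with control XX, with control XY and within the meiotic range, and those changed by 2 at 100%, 100% and 99%. The simulated spread was the same for all genes and libraries. Only genes with enough expected UMIs in the smallest library were changed. The shares therefore do not give the recovery of real genes with few control XY UMIs.

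The gate, members and gene lists were chosen with earlier results of these data known. Named genes were the 10 largest rises and 10 largest falls in each comparison, where called and expressed at 5 or more in mean log2 CPM, and members of each list. The text names some of these largest changes and not all, and some lists have more members named than planned. The same replicate number marked no shared litter or day in the labels. Some genes are not reported here.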

Additional observations from a re-analysis of the deposited data

How the results depend on the processing

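The count of genes called between dKO XY and control XY moved most: from 415 to 1274 with no filter on low counts, 814 with a stricter gate (*Dazl* 10, *Ddx4* 5), 187 with the looser gate, and between 66 and 654 with 1 library left out. It was 565 without cells carrying somatic RNA and 547 with DESeq2. The meiotic-range count of 5479 ranged from 3581 to 4848 with 1 library left out, and the count against control XX of 6043 from 4044 to 5476. The share of dKO XY cells in the meiotic range (61.9%) was 68.0% with the stricter gate, 55.5% with the looser gate, 53.8% with a cut of 3 UMIs, 47.5% with cells thinned to 5000 UMIs, 70.9% without cells carrying somatic RNA, and 59.3% to 64.5% for single libraries. The prospermatogonial share (5.50%) was 4.81% with the looser gate, 2.84% with the cut of 3 UMIs, 3.86% at 5000 UMIs, 5.90% without cells carrying somatic RNA, and 5.32% to 5.67% for single libraries. Other than fewer libraries or cells by construction, the cause of these moves was not tested. The removal of cells carrying somatic RNA and the cut of 10 meiotic UMIs were chosen after seeing the data. *Id2* against control XX turned from -0.21 to 0.96 without cells carrying somatic RNA, and against control XY *Inha* turned to 0.14 and *Inhba* to 1.06 without them and *Inhba* to 0.27 with the stricter gate. With a replicate block the counts were 5163 against control XX, 281 against control XY and 4890 in the meiotic range. Same-numbered libraries did not deviate together (correlations -0.247, -0.0468 and -0.00859), so the numbers are not read as pairs. The control XY level of a gene rests on at most 24 cells, and in the full gate a gene below about 2 CPM is a single UMI. Without cells carrying somatic RNA it rests on 10 and 6 cells.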

Other observations

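Of 10 genes of the FGF signalling list, 4 were higher in dKO XY than in control XX (beside 20.4% of all genes), 0 lower and 6 not called, with a median log2 fold change of 0.92. Without cells carrying somatic RNA 5 of 9 were higher, with a median of 2.06, beside 3369 of all 13132 genes in that setting. Against control XY none of 9 tested passed edgeR's test or DESeq2's, with 0 at an unadjusted p under 0.05. *Etv4*, an ETS factor induced by FGF signals, was at 7.69 and 24.0 CPM for control XY, 16.1 and 17.3 for dKO XY, and 1.25 and 1.29 for control XX (3.75 ± 0.34 against control XX, adjusted p = 5.78e-07). Its relative *Etv5* was at 13.8 and 55.4, 30.4 and 40.2, and 4.75 and 3.06 CPM (3.19 ± 0.27, adjusted p = 3.37e-07). *Dusp6*, a phosphatase that feeds back on ERK, was at 33.8 and 35.1, 32.7 and 28, and 7.58 and 5.17 CPM, and without cells carrying somatic RNA at 14.8 and 13.8, 19.4 and 13.0, and 2.17 and 2.44.

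Of 14 tested retinoic acid genes, dKO XY stood above control XX in 4 and below it in 2 (beside 20.4% and 21.2% of all genes), and against control XY none of 13 passed edgeR's test or DESeq2's, with 3 at an unadjusted p under 0.05. Without cells carrying somatic RNA 1 of 11 was higher than in control XY, beside 321 of all 13270 genes. With no filter on low counts 1 of 16 was lower, beside 322 of all 21965 genes. *Rara*, a retinoic acid receptor, was at 53.8 and 44.3 CPM for control XY, 38.3 and 40.9 for dKO XY, and 21.3 and 15.2 for control XX (1.16 ± 0.22, adjusted p = 0.000598). *Cyp26b1*, which degrades retinoic acid and is made by Sertoli cells, was at 10.6 and 21.1 CPM for dKO XY and 1.17 and 0.235 for control XX, and without cells carrying somatic RNA at 4.15 and 4.59 against 1.21 and 0.304.

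Genes of the X chromosome were lower in dKO XY than in control XX as a group: 167 of 500 tested (33.4%) were lower and 74 (14.8%) higher, with a median log2 fold change of -0.28, beside 19.9% lower, 21.4% higher and a median of 0.05 for 12555 autosomal genes. Without cells carrying somatic RNA the X median was -0.42. Against control XY the X and autosomal medians were 0.10 and 0.09. All 4 Y genes tested were higher than in control XX, with *Eif2s3y* at 132 and 133 CPM for control XY, 128 and 99.2 for dKO XY, and 0 in both control XX libraries.

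Beyond the members of the lists, the largest rises over control XY held *Rhox6* and *Rhox9*, X-linked homeobox genes of the germ line. *Rhox6* was at 0 and 3.69 CPM for control XY, 32.6 and 28.4 for dKO XY, and 104 and 76.2 for control XX (4.23 ± 0.66 against control XY, adjusted p = 0.00158, and 0.0859 without control XY 1, with 2 UMIs behind the control XY level and a ratio of 18.2, counting interval 5.04 to 151). *Rhox9* was at 6.15 and 1.85, 53.3 and 42.0, and 148 and 93.2 CPM (3.57 ± 0.52, adjusted p = 0.000875). *Topaz1*, a germ cell gene, was among the falls, at 76.9 and 48.0 CPM for control XY, 12 and 12.2 for dKO XY, and 36.7 and 45.4 for control XX (-2.32 ± 0.29 against control XY, adjusted p = 0.000277).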
